A study of Mus musculus with 15 samples.

Results

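The interferon response and MHC class I genes described here were 33 genes chosen by symbol, with earlier results of these data known. Every probe set annotated to a member's symbol alone was collected, and the probe set with the highest mean over all arrays stood for the gene. Of the 33 genes, 31 had such a probe set, with 57 probe sets between them, out of 18193 genes on the array with one. The only probe set of Isg15 carried more than 1 symbol and none was annotated to Ifi44, so neither has a value here. The levels of 26 of the 31 members were high enough to be tested. Ifit1, Mx1, Mx2, Psmb9 and Tap1 fell below the filter on dim probe sets and are given by their levels.

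Interferons are secreted proteins that warn tissue of infection or damage. They bind receptors on the cell surface, activate Janus kinases and transcription factors, STAT2 and IRF9 among them, and so switch on a broad set of interferon-stimulated genes. Among these are proteins that block viruses and the parts of the MHC class I pathway, in which the immunoproteasome cuts proteins into peptides, the TAP transporter carries them into the endoplasmic reticulum, and a class I heavy chain with B2M presents them at the cell surface. In the brain, microglia, astrocytes and endothelial cells respond to interferon, and neurons carry little class I protein at rest.

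RNA of mouse forebrain was measured on 15 Affymetrix mouse arrays in 3 groups of 5. The groups were EPO-HI (erythropoietin at 5 U per g into the peritoneum 1 h before hypoxic ischemia), VEH-HI (vehicle 1 h before hypoxic ischemia) and VEH-Sham (vehicle 1 h before sham surgery). Every group thus had an injection, and no group had erythropoietin with sham surgery. The labels give neither genotype nor strain, age, sex or how long after injury tissue was taken. Nor do they tie each sample to an animal of its own, so the p-values here cover only the spread among samples, part of which may be technical. All levels below are log2(intensity + 16) of the deposited intensities, and all differences are differences of that quantity, which understates the change of dim probe sets. Each fold given is likewise a ratio of intensity + 16, not of intensity, and understates it too. All 9 measured markers of neurons and forebrain, Neurod6 and Tbr1 of cortical neurons among them, were bright enough to be tested. So were 13168 of all 18193 genes, so this is only a weak check of the labelled tissue.

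The arrays VEH-Sham 1 to 4 stood apart from VEH-Sham 5 and from all 10 arrays after hypoxic ischemia. Their median intensity was 55.3 to 57.9, against 39.2 to 44.4 on the other 11 arrays, although the deposited values had been scaled to 1 trimmed mean. Over the 27022 tested probe sets, correlations between arrays were 0.968 to 0.972 within these 4, 0.962 to 0.982 within the other 11, and 0.927 to 0.954 between the 2 sets. The ratio of 3′ to 5′ Gapdh probe sets, a sign of RNA integrity, was 0.634 to 0.719 on the 4 arrays and 0.716 to 0.756 on the 11. The same ratio for Actb did not separate the sets. It was 1.283 to 1.399 on the 4 arrays, within its range of 1.241 to 1.504 on the 11. The labels name no batch. Group and array set are therefore largely confounded in each comparison with VEH-Sham, and differences of the tested members' brightest probe sets are given in both ways: from all 5 VEH-Sham arrays, with its test, and from VEH-Sham 5 alone, the only sham array of the larger set.

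Interferon-stimulated promoters are known for 2 short elements: the element bound by STAT2 with IRF9 and by other IRF proteins, searched here as GAAANNGAAA on both strands, and the palindromic element of promoters that answer interferon-gamma, searched as TTCNNNGAA. Windows of 300 bases, from 250 before to 50 after each gene's start, were read from RefSeq promoters of build GRCm38.p6, which listed 29 of the 33 members. GAAANNGAAA was found in 12 of the 29 (41.4%), against 3.99% of all 27025 genes listed, and TTCNNNGAA in 8 of the 29 (27.6%), against 9.55%. Neither was found in 11 of the 29. The 2 patterns can overlap each other, and a match is a description of letters, not evidence that a factor bound there. The 6 windows below belong to members that were higher in VEH-HI than in VEH-Sham. The first 4 hold GAAANNGAAA, Psmb8 holds TTCNNNGAA, and Trim25 holds neither and is shown for contrast. They lie at chr7:141010695-141010994 (- strand) for Ifitm3, chr7:140955912-140956211 (- strand) for Ifitm2, chr2:122147437-122147736 (+ strand) for B2m, chr3:142620413-142620712 (+ strand) for Gbp2, chr17:34197945-34198244 (+ strand) for Psmb8 and chr11:88999153-88999452 (+ strand) for Trim25. Each is printed 5′ to 3′ on the gene's strand, with the matched letters in capitals.
Ifitm3: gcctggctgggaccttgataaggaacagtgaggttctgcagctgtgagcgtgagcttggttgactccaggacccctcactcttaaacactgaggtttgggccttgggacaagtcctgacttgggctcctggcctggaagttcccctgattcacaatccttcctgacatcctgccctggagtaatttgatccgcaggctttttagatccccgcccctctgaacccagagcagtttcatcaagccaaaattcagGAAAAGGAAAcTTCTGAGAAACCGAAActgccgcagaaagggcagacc
Ifitm2: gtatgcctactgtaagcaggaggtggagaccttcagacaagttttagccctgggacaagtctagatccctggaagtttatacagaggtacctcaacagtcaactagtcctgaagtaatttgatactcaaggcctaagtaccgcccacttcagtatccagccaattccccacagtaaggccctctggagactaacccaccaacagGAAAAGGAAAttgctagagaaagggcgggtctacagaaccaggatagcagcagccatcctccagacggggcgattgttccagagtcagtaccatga
B2m: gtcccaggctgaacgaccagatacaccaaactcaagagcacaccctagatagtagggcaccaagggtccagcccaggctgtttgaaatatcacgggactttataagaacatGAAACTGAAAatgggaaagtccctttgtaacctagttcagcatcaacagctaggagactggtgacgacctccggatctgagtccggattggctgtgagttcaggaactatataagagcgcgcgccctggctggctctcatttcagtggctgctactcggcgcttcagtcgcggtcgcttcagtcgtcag
Gbp2: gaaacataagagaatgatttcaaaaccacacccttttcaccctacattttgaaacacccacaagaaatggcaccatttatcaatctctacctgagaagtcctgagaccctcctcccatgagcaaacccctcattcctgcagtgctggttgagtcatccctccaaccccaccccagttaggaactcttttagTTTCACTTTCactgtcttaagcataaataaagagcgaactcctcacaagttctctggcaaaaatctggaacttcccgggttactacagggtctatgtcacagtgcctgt
Psmb8: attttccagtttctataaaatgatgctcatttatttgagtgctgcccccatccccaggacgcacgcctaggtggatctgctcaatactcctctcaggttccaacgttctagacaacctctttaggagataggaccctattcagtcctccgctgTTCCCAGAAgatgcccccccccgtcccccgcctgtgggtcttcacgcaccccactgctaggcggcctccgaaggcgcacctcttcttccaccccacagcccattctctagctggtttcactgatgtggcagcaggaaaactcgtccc
Trim25: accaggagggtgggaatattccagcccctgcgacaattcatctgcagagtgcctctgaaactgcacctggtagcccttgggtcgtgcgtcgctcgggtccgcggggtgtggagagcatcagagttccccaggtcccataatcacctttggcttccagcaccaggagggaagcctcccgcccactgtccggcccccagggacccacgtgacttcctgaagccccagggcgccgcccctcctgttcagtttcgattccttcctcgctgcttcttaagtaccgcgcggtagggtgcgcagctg

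The Ifitm3 window holds GAAANNGAAA at 2 places, and a TTCNNNGAA overlaps the second of them. The neighbouring Ifitm2 gene holds GAAANNGAAA once, and the letters GAAAAGGAAA are the same in both. In Gbp2 the match lies on the other strand, so it reads TTTCACTTTC here. Of the 9 listed members that were higher in VEH-HI, 4 held GAAANNGAAA and 5 held TTCNNNGAA, and of the 14 listed members not past the threshold, 5 and 3 did. Stat2, the member that was lower, held GAAANNGAAA on the other strand.

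**Figure D1:**
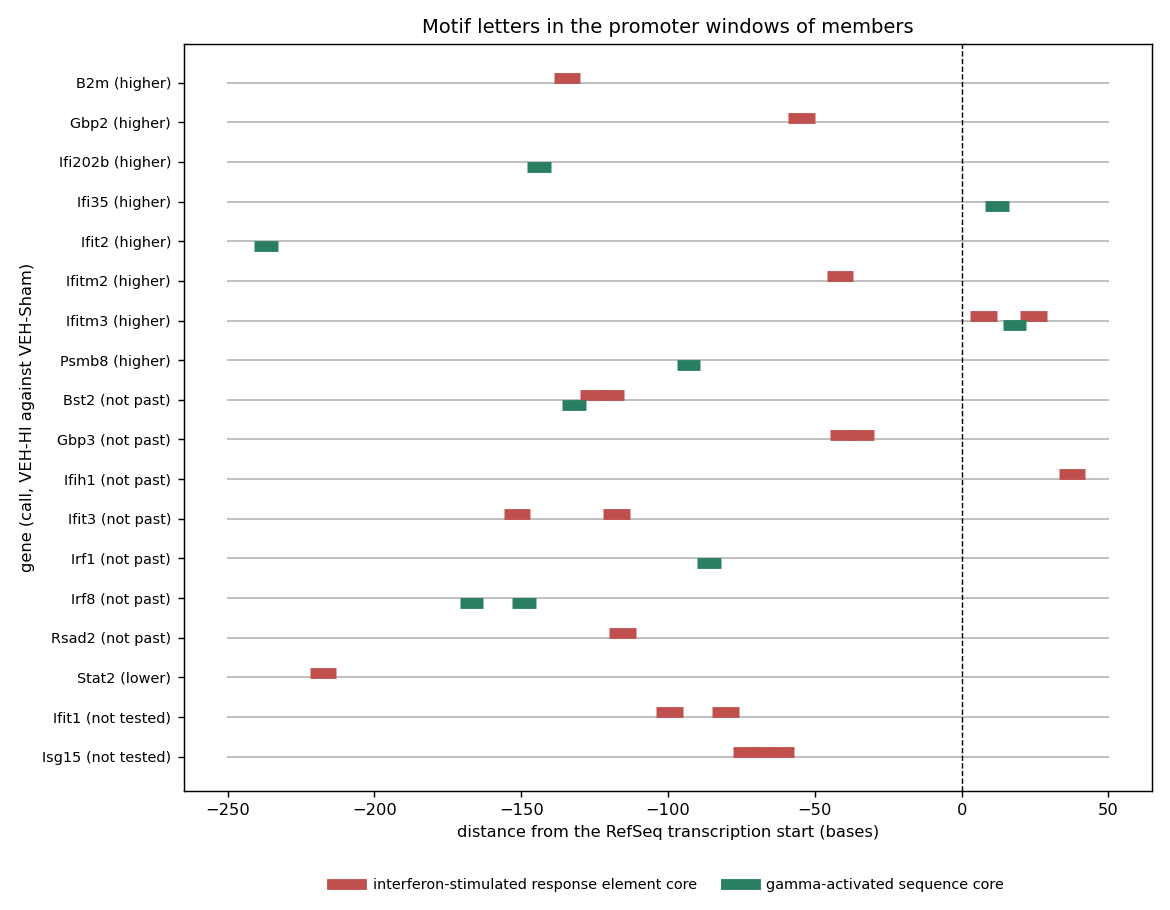
Positions of GAAANNGAAA and TTCNNNGAA in the promoter windows of the members, as bases from the gene's start (x axis) with 1 row per gene that has a match (y axis). Red bars are GAAANNGAAA, the core of the interferon-stimulated response element, and green bars TTCNNNGAA, that of the gamma-activated sequence. Matches lie on both sides of the start, and the 11 of 29 members with none are not drawn.

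VEH-HI against VEH-Sham shows these genes after the injury without erythropoietin. In VEH-HI, 10 of the 26 tested members were higher than in VEH-Sham, 1 was lower and 15 did not pass (limma, two-sided, Benjamini-Hochberg adjusted p under 0.05). Over all 13168 tested genes, 11.9% were higher and 11.5% lower. The 10 were Ifi202b, Ifitm3, Psmb8, Trim25, Gbp2, Tap2, Ifi35, Ifitm2, Ifit2 and B2m, and the lower one was Stat2. The filter on dim probe sets used the mean over all 15 arrays. Ifi202b, Psmb8, Tap2 and Gbp2 had VEH-Sham means of 4.48, 4.93, 5.17 and 5.44, below the lowest mean tested, 5.46. They passed the filter through their higher levels after hypoxic ischemia, so their part in these counts is not independent of it. With the filter lifted, 10 of the 31 members were higher and 1 lower. The median difference of the 26 members was 0.28, against −0.02 over all genes, and 22 of the 26 were above 0, against 47.3% of all genes. Because the members were chosen with earlier results of these data known, such contrasts with all genes only describe them. Measured from VEH-Sham 5 alone the median was 0.33, with 19 of 26 above 0. With VEH-Sham 5 as the only sham array no member passed: the smallest adjusted p was 0.730, and 3 members (Ifitm3, Bst2 and Tap2) had an unadjusted limma p under 0.05, against 5.61% of all genes. In 7 members, Ifi202b, Psmb8 and Gbp2 among them, the VEH-HI arrays all lay above the 5 VEH-Sham arrays. In 0 members they all lay below them, against 4.59% (above) and 4.09% (below) of all genes. Every VEH-HI array lay above VEH-Sham 5 in 12 of the 26 members, against 17.2% of all genes, and 8 of those 12 were among the 10 called higher. Since RNA came from whole forebrain, more cells of a type and more RNA per cell cannot be told apart in any of these differences, nor can fewer cells and less RNA per cell.

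**Figure D2:**
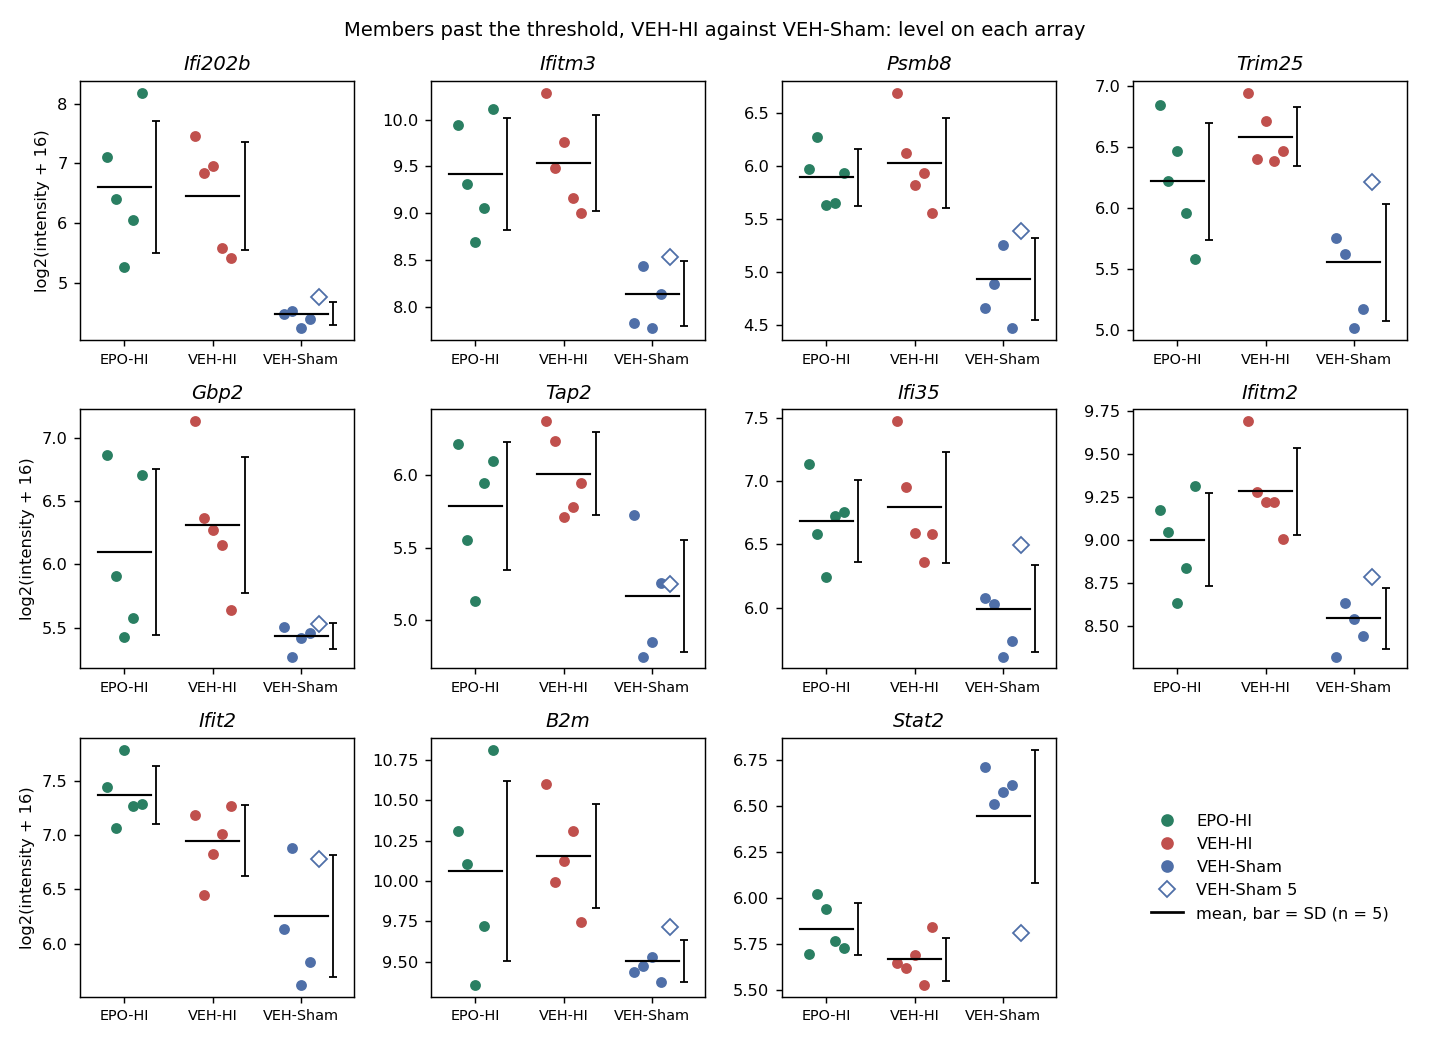
Level, log2(intensity + 16), of the 11 members past the threshold in VEH-HI against VEH-Sham. Points are arrays, the open diamond is VEH-Sham 5, lines are group means and bars the SD (n = 5). In 7 panels all 5 VEH-HI arrays lie above all 5 VEH-Sham arrays, and in the Stat2 panel VEH-Sham 5 sits with the arrays after hypoxic ischemia.

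Of the 7 tested antiviral effectors, 3 were higher in VEH-HI than in VEH-Sham and 0 lower. IFITM proteins sit in cell membranes and block the fusion of enveloped viruses. Ifitm3 had levels of 9.94, 9.31, 8.69, 9.06 and 10.11 on EPO-HI 11 to 15, against 10.29, 9.48, 9.76, 9.16 and 9.00 on VEH-HI 6 to 10 and 7.83, 8.44, 7.77, 8.14 and 8.53 on VEH-Sham 1 to 5. All 10 arrays after hypoxic ischemia lay above all 5 VEH-Sham arrays. Its mean was 9.54 ± 0.51 in VEH-HI and 8.14 ± 0.34 in VEH-Sham (SD, n = 5 each), a difference of 1.40 (SE 0.25, 2.63-fold, adjusted p = 0.00132). From VEH-Sham 5 alone the difference was 1.01.

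Ifitm2, its neighbour on chromosome 7, had levels of 9.18, 9.05, 8.64, 8.84 and 9.31 on EPO-HI 11 to 15, against 9.69, 9.28, 9.22, 9.22 and 9.00 on VEH-HI 6 to 10 and 8.33, 8.63, 8.55, 8.44 and 8.79 on VEH-Sham 1 to 5. Each VEH-HI array lay above each VEH-Sham array, while EPO-HI 13 lay within the VEH-Sham range. VEH-HI exceeded VEH-Sham by 0.74 (SE 0.13, adjusted p = 0.00149), and VEH-Sham 5 alone by 0.50.

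Ifit2 belongs to the IFIT family, which binds viral RNA and translation factors. Its levels were 7.45, 7.07, 7.79, 7.27 and 7.29 on EPO-HI 11 to 15, against 7.18, 6.45, 6.83, 7.01 and 7.27 on VEH-HI 6 to 10 and 6.14, 6.89, 5.62, 5.83 and 6.78 on VEH-Sham 1 to 5. VEH-HI 7 and 8 lay within the VEH-Sham range and all 5 EPO-HI arrays lay above it. The difference of VEH-HI from VEH-Sham was 0.70 (SE 0.22, adjusted p = 0.0268), and 0.17 from VEH-Sham 5. Leaving out any 1 of VEH-Sham 1, 3 or 4 or VEH-HI 6, 9 or 10 took Ifit2 out of the calls, with adjusted p up to 0.0844.

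The other tested antiviral members did not pass in VEH-HI against VEH-Sham. Bst2, which tethers budding viruses to the cell, differed by 0.62 (adjusted p = 0.0663), with VEH-Sham 1 and 2 at 5.21 and 4.90 and VEH-Sham 4 at 6.60, so that the VEH-Sham arrays spanned both sides of the VEH-HI arrays. Ifit3 differed by 0.41 (adjusted p = 0.188) and Oasl2, an oligoadenylate synthetase-like protein, by −0.08. Rsad2, which makes an antiviral nucleotide, differed by 0.28 by its brightest probe set, and its other 2 tested probe sets disagreed, at −0.35 and 0.68 (adjusted p = 0.235 and 0.0534). From VEH-Sham 5, Bst2 differed by 0.57, Ifit3 by 0.20, Oasl2 by −0.15 and Rsad2 by 0.51. The other 3 members were dim. Ifit1 averaged 5.11 ± 0.40 in EPO-HI, 4.87 ± 0.40 in VEH-HI and 4.89 ± 0.36 in VEH-Sham, Mx1 4.35 ± 0.33, 4.56 ± 0.37 and 4.77 ± 0.43 in the same order, and Mx2 4.27 ± 0.09, 4.39 ± 0.08 and 4.40 ± 0.10. With the filter lifted, none of these 3 passed in either comparison with VEH-Sham.

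Among the sensors and transcription factors, Stat2 was the only member past the threshold in VEH-HI against VEH-Sham. STAT2 carries the signal of type I interferon to the nucleus. Its levels were 5.70, 6.02, 5.94, 5.77 and 5.73 on EPO-HI 11 to 15, against 5.65, 5.62, 5.69, 5.53 and 5.84 on VEH-HI 6 to 10 and 6.71, 6.51, 6.58, 6.62 and 5.81 on VEH-Sham 1 to 5. VEH-Sham 1 to 4 lay above all other arrays, and VEH-Sham 5 lay within the range of the arrays after hypoxic ischemia. The difference of VEH-HI from VEH-Sham was −0.78 (SE 0.17, adjusted p = 0.00399), and −0.14 from VEH-Sham 5 alone. The second Stat2 probe set was below the filter. It differed by −0.62 from all 5 VEH-Sham arrays and by −0.52 from VEH-Sham 5.

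Irf1, a transcription factor that interferon-gamma induces and that drives class I genes, had levels of 7.50, 7.35, 7.24, 7.19 and 7.69 on EPO-HI 11 to 15, against 7.38, 7.10, 7.12, 7.25 and 6.79 on VEH-HI 6 to 10 and 7.09, 6.94, 6.62, 6.75 and 7.25 on VEH-Sham 1 to 5. The groups overlapped, and VEH-HI differed from VEH-Sham by 0.20 (SE 0.14, adjusted p = 0.318) and from VEH-Sham 5 by −0.12, with the sign turned. Irf8, needed for microglia and other myeloid cells, differed by 0.22 (adjusted p = 0.451) by its brighter probe set and by 1.09 (SE 0.39, adjusted p = 0.0482) by its other one. Both were higher than VEH-Sham 5 on average, by 0.66 and 1.15. Irf7, Irf9 and the RNA sensor Ifih1 differed by −0.12, 0.12 and 0.06 and did not pass. From VEH-Sham 5 they differed by 0.10, 0.38 and −0.05, so Irf7 and Ifih1 turned sign.

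Both measured genes of the ubiquitin-like modifier system were tested. Trim25, a ubiquitin ligase that activates RNA sensing by RIG-I, had levels of 6.85, 6.22, 6.47, 5.96 and 5.58 on EPO-HI 11 to 15, against 6.94, 6.40, 6.71, 6.39 and 6.47 on VEH-HI 6 to 10 and 5.75, 5.63, 5.02, 5.17 and 6.21 on VEH-Sham 1 to 5. All 5 VEH-HI arrays lay above VEH-Sham 1 to 5, of which VEH-Sham 5 was the highest. The difference was 1.03 (SE 0.23, 2.04-fold, adjusted p = 0.00509) from all 5 and 0.37 from VEH-Sham 5. The other 2 Trim25 probe sets did not share it: they differed by 0.28 (adjusted p = 0.249) and, below the filter, by −0.57. Usp18, which removes ISG15 from proteins and restrains the interferon receptor, differed by 0.16 (0.39 from VEH-Sham 5) and did not pass.

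Ifi202b, an interferon-inducible DNA-binding protein of the mouse p200 family, had the largest difference of the 26 members. Its levels were 7.11, 6.40, 5.27, 6.05 and 8.18 on EPO-HI 11 to 15, against 7.46, 6.85, 6.96, 5.58 and 5.41 on VEH-HI 6 to 10 and 4.48, 4.53, 4.24, 4.39 and 4.77 on VEH-Sham 1 to 5. The VEH-Sham arrays lay close to the pseudocount's floor, with a mean intensity of 6.50, against 107.6 in EPO-HI and 85.1 in VEH-HI. All arrays after hypoxic ischemia lay above all VEH-Sham arrays, and they ranged widely among themselves. VEH-HI exceeded VEH-Sham by 1.97 (SE 0.42, 3.92-fold, adjusted p = 0.00363) and VEH-Sham 5 by 1.68. The p200 genes are near-identical copies in places, and the probe set is of the type shared between transcripts, so its signal may come from more than 1 of them.

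Gbp2, a guanylate-binding GTPase that attacks the vacuoles of intracellular pathogens, had levels of 6.87, 5.91, 5.43, 5.58 and 6.71 on EPO-HI 11 to 15, against 7.13, 6.36, 6.27, 6.15 and 5.64 on VEH-HI 6 to 10 and 5.51, 5.27, 5.42, 5.46 and 5.53 on VEH-Sham 1 to 5. The VEH-HI arrays lay above all VEH-Sham arrays, with VEH-HI 10 close to them and VEH-HI 6 the highest. VEH-HI differed from VEH-Sham by 0.88 (SE 0.27, adjusted p = 0.0248) and from VEH-Sham 5 by 0.78, and the second Gbp2 probe set by 0.83 (adjusted p = 0.0519). Without VEH-HI 6 or without VEH-Sham 2 the call was lost, with adjusted p up to 0.0776. Gbp3, of the same family, differed by −0.13 (0.13 from VEH-Sham 5) and did not pass.

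Ifi35, an interferon-inducible leucine zipper protein, had levels of 7.13, 6.59, 6.24, 6.73 and 6.75 on EPO-HI 11 to 15, against 7.47, 6.95, 6.59, 6.36 and 6.58 on VEH-HI 6 to 10 and 6.08, 6.03, 5.61, 5.74 and 6.50 on VEH-Sham 1 to 5. Its brightest probe set was higher in VEH-HI by 0.80 (SE 0.21, adjusted p = 0.0106), and by 0.30 from VEH-Sham 5, which lay above VEH-HI 9. Its second tested probe set differed by −0.01, and the mean over all 3 of its probe sets, 1 of them below the filter, differed by 0.27 and did not pass (adjusted p = 0.186).

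The immunoproteasome replaces the catalytic subunits of the standard proteasome under interferon. Psmb8 encodes 1 such subunit and had levels of 5.97, 6.27, 5.63, 5.65 and 5.93 on EPO-HI 11 to 15, against 6.69, 6.12, 5.82, 5.94 and 5.56 on VEH-HI 6 to 10 and 4.66, 4.89, 5.25, 4.47 and 5.39 on VEH-Sham 1 to 5. All 10 arrays after hypoxic ischemia lay above all 5 VEH-Sham arrays. VEH-HI differed from VEH-Sham by 1.09 (SE 0.23, 2.13-fold, adjusted p = 0.00319) and from VEH-Sham 5 by 0.64. Psmb10, another of these subunits, had levels of 8.38, 8.68, 8.37, 8.82 and 8.60 on EPO-HI 11 to 15, against 8.98, 8.71, 8.50, 8.95 and 8.77 on VEH-HI 6 to 10 and 8.39, 8.52, 8.30, 8.51 and 8.80 on VEH-Sham 1 to 5. VEH-Sham 5 lay among the VEH-HI arrays there, and the difference of 0.28 from all 5 VEH-Sham arrays (adjusted p = 0.0885) was −0.02 from VEH-Sham 5. The second Psmb8 probe set, below the filter, differed by 0.18 between VEH-HI and VEH-Sham. Psmb9, also below the filter, had means of 5.56 ± 0.27 in EPO-HI, 5.53 ± 0.53 in VEH-HI and 4.95 ± 0.36 in VEH-Sham (SD, n = 5 each). VEH-Sham 5 was at 5.43, and EPO-HI and VEH-HI differed from it by only 0.13 and 0.09. With the filter lifted, Psmb9 passed against all 5 VEH-Sham arrays in neither group (limma, adjusted p = 0.1003 in EPO-HI and 0.112 in VEH-HI).

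Tap2 encodes 1 chain of the peptide transporter and had levels of 6.22, 5.55, 5.13, 5.94 and 6.10 on EPO-HI 11 to 15, against 6.37, 6.24, 5.71, 5.78 and 5.95 on VEH-HI 6 to 10 and 5.73, 4.75, 4.85, 5.26 and 5.25 on VEH-Sham 1 to 5. VEH-Sham 1 lay within the VEH-HI range and the other VEH-Sham arrays below it. VEH-HI exceeded VEH-Sham by 0.84 (SE 0.23, adjusted p = 0.014) and VEH-Sham 5 by 0.76. Tap1, the other chain, was below the filter in all 4 of its probe sets, and they disagreed. The brightest averaged 5.44 ± 0.39 in EPO-HI, 5.44 ± 0.23 in VEH-HI and 5.01 ± 0.43 in VEH-Sham (SD, n = 5 each). It differed by 0.43 in VEH-HI (0.21 from VEH-Sham 5) and the next 2 by −1.39 and −1.23. In those 2, VEH-Sham 5 again sat near the arrays after hypoxic ischemia, with differences of 0.12 and −0.28 from it. Tapbp, which bridges the transporter and the class I chain, had levels of 7.95, 7.70, 7.84, 7.66 and 7.83 on EPO-HI 11 to 15, against 8.20, 8.10, 8.04, 7.56 and 7.53 on VEH-HI 6 to 10 and 7.54, 7.50, 7.96, 7.50 and 7.74 on VEH-Sham 1 to 5. Its groups overlapped, and it differed by 0.24 (adjusted p = 0.204) and by 0.15 from VEH-Sham 5.

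B2m, the constant light chain of class I molecules, had levels of 10.31, 10.10, 9.35, 9.72 and 10.81 on EPO-HI 11 to 15, against 10.60, 9.99, 10.12, 10.31 and 9.74 on VEH-HI 6 to 10 and 9.44, 9.48, 9.53, 9.37 and 9.72 on VEH-Sham 1 to 5. All 5 VEH-HI arrays lay above all 5 VEH-Sham arrays. VEH-HI differed from VEH-Sham by 0.65 (SE 0.19, 1.57-fold, adjusted p = 0.0219) and from VEH-Sham 5 by 0.44, and the second B2m probe set was higher too, by 0.58 (adjusted p = 0.0201). Without VEH-HI 6 or without VEH-Sham 4 the first probe set no longer passed, with adjusted p up to 0.0622.

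The heavy chains H2-K1 and H2-D1, which hold the peptide, did not pass by their brightest probe sets. H2-K1 had levels of 8.86, 9.20, 8.84, 8.57 and 9.22 on EPO-HI 11 to 15, against 8.81, 9.16, 8.58, 8.44 and 8.86 on VEH-HI 6 to 10 and 8.64, 8.51, 8.40, 8.44 and 9.28 on VEH-Sham 1 to 5. H2-D1 had levels of 9.13, 9.60, 9.19, 9.03 and 9.57 on EPO-HI 11 to 15, against 9.14, 9.58, 9.07, 9.05 and 9.03 on VEH-HI 6 to 10 and 9.34, 8.93, 8.97, 8.79 and 9.62 on VEH-Sham 1 to 5. In both, VEH-Sham 5 was above all 10 arrays after hypoxic ischemia, while VEH-Sham 2 to 4 were at the low end. Among the 26 tested members, all arrays of a group lay below VEH-Sham 5 in these 2 alone, in EPO-HI (15.9% of all genes) as in VEH-HI (15.2%). In both, too, VEH-HI 7, EPO-HI 12 and EPO-HI 15 were the highest of the arrays after hypoxic ischemia. VEH-HI differed from VEH-Sham by 0.12 for H2-K1 (adjusted p = 0.63) and 0.05 for H2-D1 (adjusted p = 0.855), and from VEH-Sham 5 by −0.51 and −0.44. The class I genes are near-identical in long stretches and most of these probe sets are of a type that can cross-hybridise. In VEH-HI the 4 tested probe sets of H2-K1 differed by −0.43 to 0.74, and the 4 of H2-D1 by −0.06 to 0.15. Only the H2-K1 probe set at 0.74 passed, and it differed by 0.02 from VEH-Sham 5. In EPO-HI they differed from VEH-Sham by −0.60 to 0.67 for H2-K1 and by 0.10 to 0.41 for H2-D1. Only the H2-K1 probe set at −0.60 passed there (limma, adjusted p = 0.0448), and it differed by −0.05 from VEH-Sham 5.

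**Figure D3:**
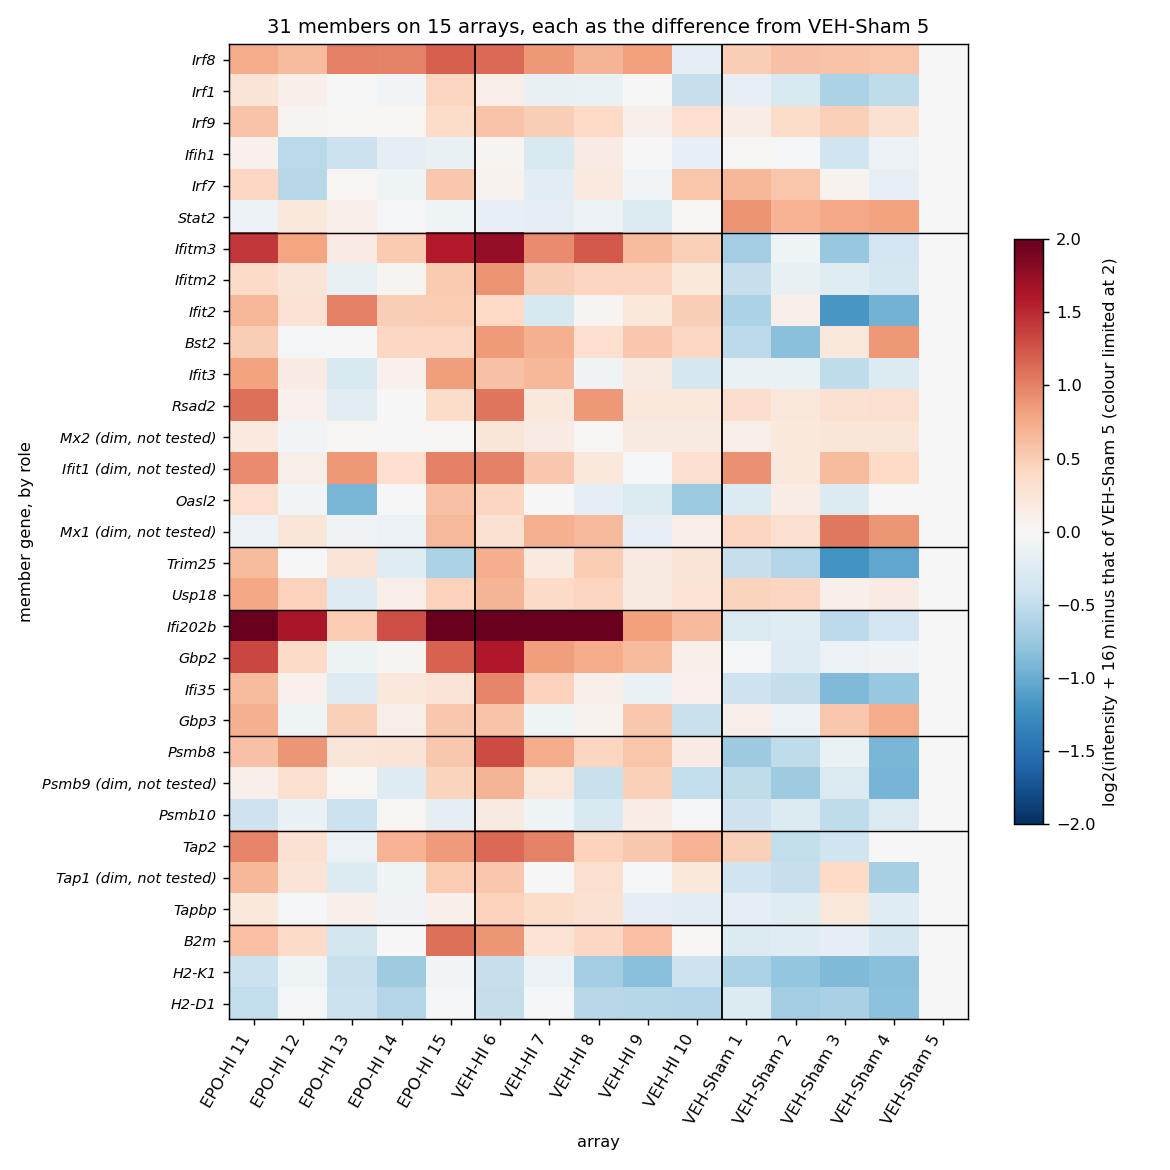
Heat map of 31 members (rows, by role) on 15 arrays (columns), coloured by log2(intensity + 16) minus that of VEH-Sham 5. The columns of EPO-HI 11, EPO-HI 15 and VEH-HI 6 are the reddest of their groups, and the Stat2 row is blue or pale on all arrays after hypoxic ischemia and red on VEH-Sham 1 to 4.

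The arrays of a group differed in how high the members were as a set. VEH-HI 6 was the highest of its group in 19 of the 26 tested members, against 24.6% of all tested genes, and its median difference from VEH-Sham 5 over the members was 0.63. VEH-HI 10 was the lowest of its group in 13 of the 26, against 21.0% of all genes. In EPO-HI, array 11 was the highest in 11 members and array 15 in 10, and array 13 was the lowest in 14, against 21.0%, 21.5% and 20.4% of all genes. In VEH-Sham, array 5 was the highest in 13 members and the lowest in 5, against 28.6% and 32.1% of all genes. Without VEH-HI 6, the count of members higher in VEH-HI than in VEH-Sham was 7 in place of 10, and that of all 27022 tested probe sets was 2005 in place of 2661.

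Erythropoietin before hypoxic ischemia was set against vehicle before hypoxic ischemia to ask whether it changed these genes in injured forebrain. No member passed: 0 of 26 were higher or lower in EPO-HI than in VEH-HI, and the share of all 13168 genes past the threshold was 0% in each direction (limma, smallest member adjusted p = 0.9997). At an unadjusted limma p under 0.05, 1 member was lower and 0 were higher, against 1.61% and 1.91% of all genes. Both groups come from the same set of arrays by median intensity, so the stand-apart sham arrays enter this comparison only through the shared estimate of spread. The median difference of the 26 members was −0.09, against −0.01 over all genes. Of the members, 10 were above 0 and 16 below, and the differences ran from −0.37 for Trim25 (SE 0.23) to 0.42 for Ifit2 (SE 0.22). In none of the 26 did the arrays of the 2 groups separate, as they did upward in 0.357% and downward in 0.372% of all genes.

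Ifitm2 was the member past an unadjusted 0.05, with a difference of −0.28 (SE 0.13, limma adjusted p = 0.9997). Its mean was 9.00 ± 0.27 in EPO-HI and 9.28 ± 0.25 in VEH-HI (SD, n = 5 each), and EPO-HI 15, at 9.31, exceeded 4 of the 5 VEH-HI arrays. Ifit2 and Irf1 came next by p and ran the other way. Ifit2 averaged 7.37 ± 0.27 in EPO-HI and 6.95 ± 0.33 in VEH-HI, and Irf1 7.39 ± 0.20 and 7.13 ± 0.22. Psmb10 differed by −0.21 (SE 0.12) and Trim25 as given above. None of the 5 passed, and the arrays of the 2 groups overlapped in each. A p that misses the threshold does not show that the groups are alike: with an SE of 0.12 to 0.42, differences of these sizes could not be told from 0.

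**Figure D4:**
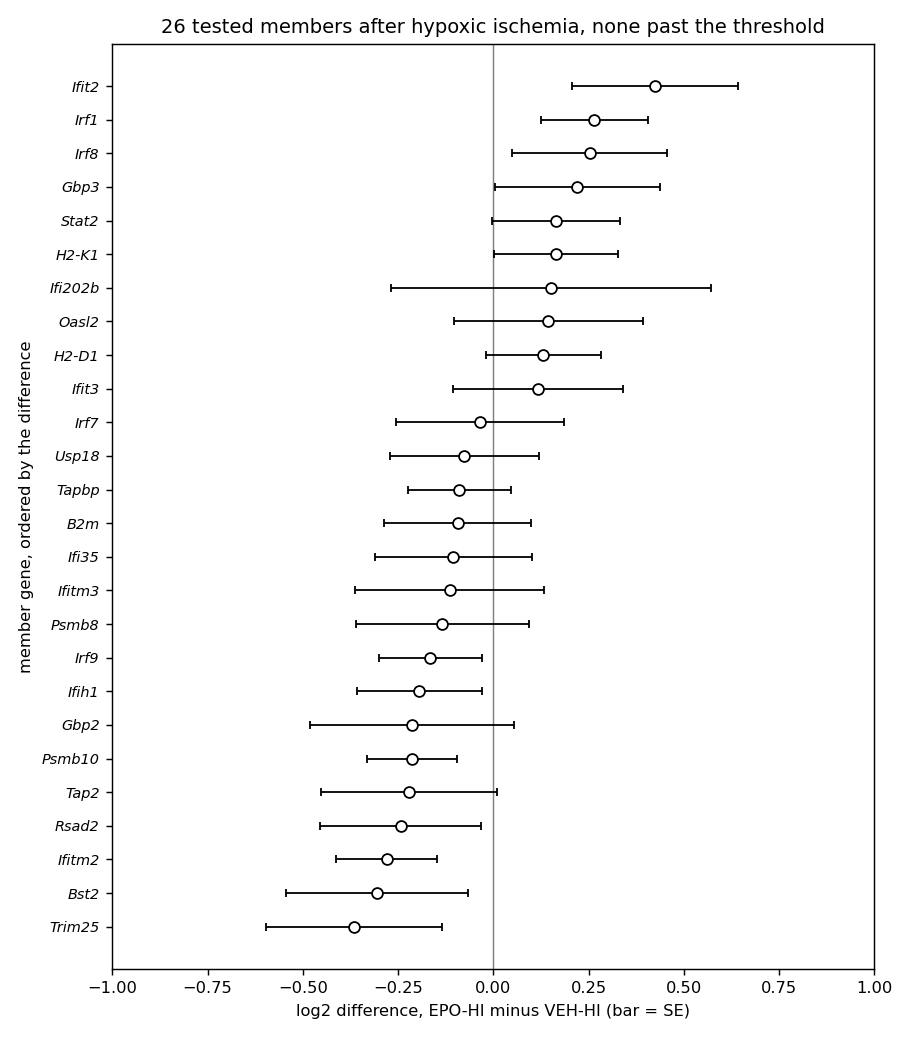
Difference of EPO-HI from VEH-HI in log2(intensity + 16) for the 26 tested members, ordered by size, with bars of 1 SE. The points run from −0.37 for Trim25 to 0.42 for Ifit2 and none passed the threshold.

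EPO-HI was also compared with VEH-Sham. It shares its 5 VEH-Sham arrays with the comparison above, so the 2 are not independent. Here 7 of 26 members were higher, 1 was lower and 18 did not pass (limma, adjusted p under 0.05), against 8.86% and 9.46% of all genes. The 7 were Ifi202b, Ifitm3, Ifit2, Psmb8, Ifi35, Irf1 and Ifitm2, and the lower one was again Stat2. Ifi202b and Psmb8, as said above, passed the filter through their levels after hypoxic ischemia. The median of the 26 differences was 0.38 from all 5 VEH-Sham arrays and 0.24 from VEH-Sham 5 alone. With VEH-Sham 5 as the only sham array, none passed, and 2 had an unadjusted limma p under 0.05, as did 3.63% of all genes. All 5 EPO-HI arrays lay above all 5 VEH-Sham arrays in 5 members and below them in 0, against 3.79% and 3.63% of all genes. Every EPO-HI array lay above VEH-Sham 5 in 6 members, against 16.8% of all genes, and 4 of these were among the 7.

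Ifi202b differed by 2.12 (SE 0.42, adjusted p = 0.00396) in EPO-HI, Ifitm3 by 1.28 (SE 0.25, adjusted p = 0.00363) and Psmb8 by 0.96 (SE 0.23, adjusted p = 0.00869). From VEH-Sham 5 the 3 differed by 1.84, 0.89 and 0.51, with all 5 EPO-HI arrays above it each time. Ifit2 was higher by 1.12 (SE 0.22, adjusted p = 0.00363) and by 0.59 from VEH-Sham 5, again with all 5 EPO-HI arrays above that array. These 4 kept their call without any 1 array.

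The calls of the other members were less firm. Irf1 was higher by 0.46 (adjusted p = 0.0287), Ifitm2 by 0.46 (adjusted p = 0.0237) and Ifi35 by 0.70 (adjusted p = 0.0261), and each lost its call without EPO-HI 11 or EPO-HI 15, among other settings, with adjusted p up to 0.0853, 0.0671 and, with the mean of its probe sets, 0.168. From VEH-Sham 5 they differed by 0.14, 0.22 and 0.19. Stat2 was lower by its brightest probe set, with a difference of −0.61 (adjusted p = 0.0183), but differed by 0.02 from VEH-Sham 5. Its second probe set, below the filter, differed by −0.76 from all VEH-Sham arrays and by −0.66 from VEH-Sham 5. There every EPO-HI array lay below every VEH-Sham array. Members past the threshold in VEH-HI but not here lay close to it: B2m differed by 0.55 (adjusted p = 0.05001, just above the threshold, and its second probe set passed at 0.0368), Trim25 by 0.66 (adjusted p = 0.0514), Tap2 by 0.62 (adjusted p = 0.0624) and Gbp2 by 0.66 (adjusted p = 0.0864). From VEH-Sham 5 these 4 differed by 0.34, 0.01, 0.54 and 0.57. Whether EPO-HI and VEH-HI differed in these genes is the direct comparison above, in which none passed.

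**Figure D5:**
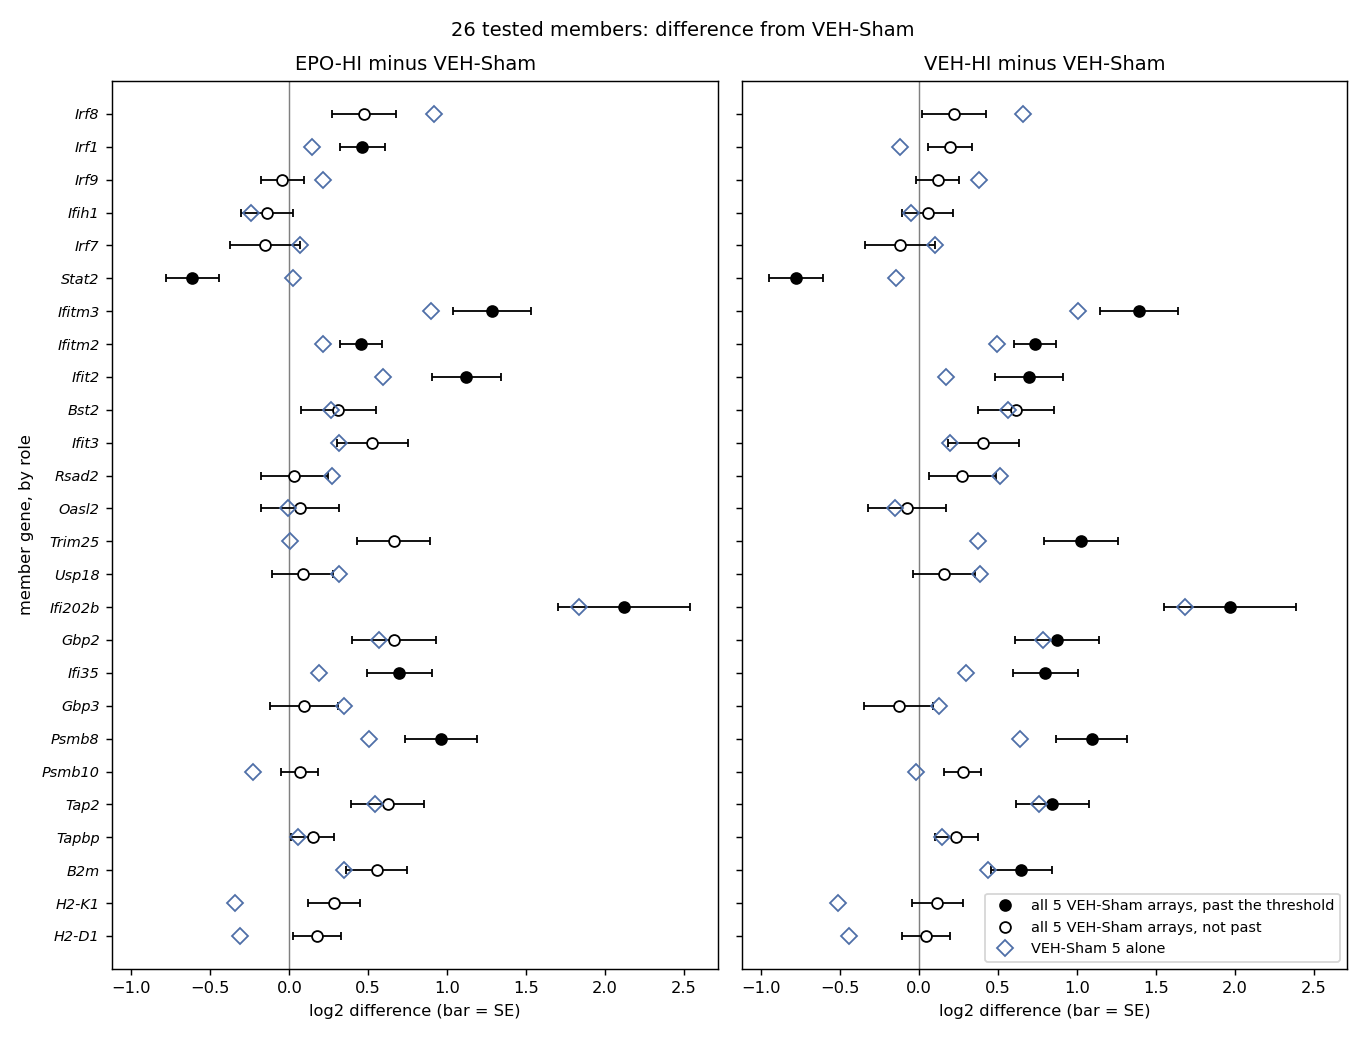
Differences from VEH-Sham in log2(intensity + 16) of the 26 tested members (rows, by role), EPO-HI on the left and VEH-HI on the right. Circles with SE bars use all 5 VEH-Sham arrays, filled where past the threshold, and open diamonds use VEH-Sham 5 alone. Ifi202b, Ifitm3 and Psmb8 stay above 0 by both, and Stat2, by its brightest probe set, lies near 0 by VEH-Sham 5.

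Other genes of the pathway were counted in lists. The background shares were 8.86% higher and 9.46% lower in EPO-HI, and 11.9% and 11.5% in VEH-HI, each against VEH-Sham. Of 9 tested interferon ligands, receptors and kinases, 2 were higher and 1 lower in EPO-HI than in VEH-Sham, and 1 was higher and 2 lower in VEH-HI. The receptor chain Ifnar2 was higher by 0.68 in EPO-HI and 0.48 in VEH-HI (adjusted p = 0.0013 and 0.00434, 0.54 and 0.34 from VEH-Sham 5). Jak2, a kinase of the interferon-gamma receptor, was higher by 0.38 in EPO-HI (0.12 from VEH-Sham 5). Tyk2, a kinase of the type I receptor, differed by −0.42 in EPO-HI and −0.49 in VEH-HI and was lower in both, but stood 0.19 and 0.12 above VEH-Sham 5. Ifna1 was lower in VEH-HI, with a difference of −0.76 (−0.32 from VEH-Sham 5).

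Of 10 other sensors and regulatory factors tested, none was higher, 1 was lower in EPO-HI and 3 were lower in VEH-HI. Over all genes 9.46% were lower in EPO-HI and 11.5% in VEH-HI, so the EPO-HI count was near the share of all genes. Sting1, the adaptor of cytosolic DNA sensing, differed by −1.14 in VEH-HI (SE 0.30, adjusted p = 0.0107) and by −1.35 from VEH-Sham 5. Dhx58, a regulator of RNA sensing, was lower in both groups, with differences of −0.69 in EPO-HI and −0.61 in VEH-HI, and of −0.18 and −0.09 from VEH-Sham 5. Irf5 was lower in VEH-HI, with a difference of −0.60, and differed by 0.04 from VEH-Sham 5.

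Of 35 other interferon-stimulated genes tested, 3 were higher and 6 lower in EPO-HI (8.86% and 9.46% of all genes). In VEH-HI, 5 were higher and 3 lower (11.9% and 11.5% of all genes). In both groups the share higher was near that of all genes. The list's median difference was −0.02 in both, and 0.17 and 0.22 from VEH-Sham 5. Ifitm1, the third IFITM gene, was higher by 0.95 in EPO-HI and 1.36 in VEH-HI (adjusted p = 0.006 and 0.000487, 1.24 and 1.65 from VEH-Sham 5). Rtp4 was higher by 0.98 in EPO-HI and 1.16 in VEH-HI (0.76 and 0.93 from VEH-Sham 5), and Ifi30, a lysosomal thiol reductase, by 0.39 and 0.61 (0.38 and 0.60). The chemokine Cxcl10 was higher in VEH-HI, by 1.06 (adjusted p = 0.0298, 1.71 from VEH-Sham 5). Samhd1, Zbp1 and Cxcl11 were lower in both groups, with differences of −0.88 to −0.50 from all 5 VEH-Sham arrays and of −0.22 to 0.22 from VEH-Sham 5.

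The 3 catalytic subunits of the standard proteasome were higher in both groups than in VEH-Sham, and lay close to VEH-Sham 5. In EPO-HI, Psmb5, Psmb6 and Psmb7 were higher by 0.40, 0.63 and 0.38 and differed by 0.01, −0.08 and −0.03 from VEH-Sham 5. In VEH-HI they were higher by 0.47, 0.78 and 0.42, with adjusted p of 0.00516, 0.00206 and 0.0212, and differed by 0.08, 0.08 and 0.01 from VEH-Sham 5. Of 7 other class I and peptide loading genes, 1 was higher in both groups, the proteasome activator Psme1, by 0.38 in EPO-HI and 0.41 in VEH-HI (−0.10 and −0.07 from VEH-Sham 5). Of 5 MHC class II genes, Cd74, the invariant chain, differed by −0.84 in EPO-HI and −0.69 in VEH-HI and was lower in both (−0.09 and 0.06 from VEH-Sham 5). Over all genes, 8.86% were higher and 9.46% lower in EPO-HI, and 11.9% and 11.5% in VEH-HI. Beside these shares, 1 call in a list of 7 or 5 genes says little about the list. No gene of these 6 lists passed in EPO-HI against VEH-HI.

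Markers of cell types were counted in lists in the same way. Over all tested genes, 8.86% were higher and 9.46% lower in EPO-HI than in VEH-Sham, and 11.9% and 11.5% in VEH-HI. Of 15 tested markers of microglia and macrophages, 4 were higher and 1 lower in EPO-HI than in VEH-Sham, and 9 were higher and 1 lower in VEH-HI. C1qc, a complement chain of microglia, was higher by 1.25 in EPO-HI and 1.33 in VEH-HI (1.09 and 1.17 from VEH-Sham 5). The summed intensity of the list was 3897 to 5229 on EPO-HI arrays and 4684 to 6641 on VEH-HI arrays, against 3342 to 4098 on VEH-Sham arrays. Astrocyte markers were higher in 4 of 7 in both groups, and their sum was 11286 to 12896 on EPO-HI arrays and 10761 to 13909 on VEH-HI arrays, against 8475 to 10868 on VEH-Sham arrays. VEH-Sham 5 had the 10868, above VEH-HI 10. The median difference of the astrocyte list was 0.32 in EPO-HI and 0.41 in VEH-HI from all 5 VEH-Sham arrays, and 0.05 and 0.09 from VEH-Sham 5. That of the microglial list was 0.33 and 0.48 from all 5, and 0.35 and 0.45 from VEH-Sham 5.

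Neutrophil markers were higher in 1 of 6 in EPO-HI and 2 of 6 in VEH-HI. Their sum was 185 to 992 on EPO-HI arrays and 207 to 2409 on VEH-HI arrays, against 168 to 235 on VEH-Sham arrays. EPO-HI 15 had the 992 and VEH-HI 8 the 2409, while EPO-HI 13, EPO-HI 14 and VEH-HI 10 lay within the VEH-Sham range. From VEH-Sham 5 the medians in EPO-HI and VEH-HI were 0.56 and 0.71 for neutrophil, −0.01 and 0.03 for endothelial, and −0.06 and −0.24 for neuronal and forebrain markers. Of 8 endothelial markers, 1 was higher and 1 lower in EPO-HI, and 2 were higher and 1 lower in VEH-HI. In a list this short, the EPO-HI counts were near the shares of all genes (8.86% higher and 9.46% lower). Their sum was 1007 to 1198 on EPO-HI arrays and 911 to 1650 on VEH-HI arrays, against 957 to 1091 on VEH-Sham arrays. Of 9 neuronal and forebrain markers none was higher, 2 were lower in EPO-HI and 3 in VEH-HI, and their sum was 11276 to 13753 on EPO-HI arrays and 9555 to 13692 on VEH-HI arrays, against 13758 to 14809 on VEH-Sham arrays. None of the tested markers of T, B and NK cells (2 tested), dendritic cells (3) or erythroid cells and blood (2) passed. With so few tested, the lack of a call says little. Of the 13 measured T, B and NK cell genes, 11 were below the filter, Cd3e, Cd4 and Cd79a among them, and the list summed to 170 to 224 on EPO-HI arrays and 165 to 291 on VEH-HI arrays, against 162 to 287 on VEH-Sham arrays.

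VEH-HI 6, which was highest in most members, also had the highest sums of microglial (6641), endothelial (1650) and astrocyte markers (13909) and of erythroid and blood markers (410, against at most 273 elsewhere) of all 15 arrays and the lowest sum of neuronal and forebrain markers (9555). The part of any cell type in the members' levels was not tested.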

How the data were processed

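Total RNA of mouse forebrain was measured on 15 arrays, per the labels. The authors deposited 1 linear intensity for each probe set on each array. From the values, every array had been scaled to a trimmed mean of 150.0 (2% trimmed at each end). How probes were summarised is not given in the sources used. Of 45101 probe sets, 64 controls were left out. Names came from the platform's annotation, updated by gene number for 34741 of the 34945 probe sets with 1 symbol, with 0 changed. Of the others, 932 had several symbols and 9160 were not listed, and none was named.

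Levels are log2(intensity + 16). The brightest 60% of probe sets by mean level (27022, down to a mean level of 5.46) entered limma 3.58.1 (R 4.3.3) with 3 group means over all 15 arrays, moderated variances with a trend and Benjamini-Hochberg adjustment over all of them, two-sided at 0.05. Gene counts use the brightest probe set of each of 13168 genes. The fit was tested on simulated data. The number of arrays limits the precision. Each replicate number occurs once in the series, so none pairs arrays of different groups.

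Named with values were all members past the threshold in any comparison, the 5 with the smallest p in EPO-HI against VEH-HI, the brightest member of each role, and up to 4 genes per pathway list and comparison. The members and lists were chosen with earlier results of these data known. Alternatives were other normalizations, pseudocounts, filters, gene summaries and variance models, each array left out in turn, the set of arrays as a block and VEH-Sham 5 as the only sham array.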

Additional observations from a re-analysis of the deposited data

Results flagged for a closer look

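In each group of 5 arrays, the gap between the most extreme array and its nearest neighbour was set against the group's whole range, for 31 members and 3 groups, or 93 groups in all. Chance flags about 1 in 20 groups, and 4 of the 93 were flagged, 2 of them at the high end. Of these, 3 concern VEH-Sham 5, the sham array that lies with the arrays after hypoxic ischemia by its median intensity. Stat2 was 5.81 on VEH-Sham 5, the lowest of its group, with the other VEH-Sham arrays at 6.51 to 6.71. Irf8 was 5.45 on VEH-Sham 5, against 5.94 to 6.04 on the others. H2-K1 was 9.28 on VEH-Sham 5, the highest of its group, with the others at 8.40 to 8.64. The remaining one was H2-D1 on VEH-HI 7, at 9.58, with the other VEH-HI arrays at 9.03 to 9.14.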

How the results depend on the processing

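With the 2 sets as a block, or with VEH-Sham 5 as the only sham array, members higher fell to 0 in EPO-HI and 0 in VEH-HI, in place of 7 and 10, and members lower to 0 and 0, in place of 1 and 1. Over all 27022 probe sets, 4 and 3 passed in EPO-HI and VEH-HI under the block and 5 and 7 with VEH-Sham 5 alone, in place of 4939 and 6174. Under both, Stat2 in EPO-HI against VEH-Sham turned to 0.022, in place of −0.61. The block kept all 15 arrays and added a term for the set, while the other fit left out VEH-Sham 1 to 4. Both take the array set into account and also leave 1 sham array to estimate the sham level, and these were not told apart. With array medians made equal, members higher were 15 in EPO-HI and 16 in VEH-HI. With quantile normalization there were 11 in EPO-HI, while 12 in VEH-HI stayed within 1.5 times the count reported. Members lower in EPO-HI were 0 under each of these normalizations, and 0 in both groups with the mean of all probe sets of a gene, where 20 members were tested and Stat2 was not among them. The cause of the shifts under other normalizations was not tested. Equal medians moved the median difference of all probe sets from VEH-Sham to 0.22 in EPO-HI and 0.18 in VEH-HI, in place of −0.05 and −0.06, and the share of higher among all calls to 88.7% and 85.6%, in place of 40.6% and 43.1%. Quantile normalization gave shares of 53.4% and 53.3%.

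Leaving out 1 array at a time, members higher ranged from 4 (without VEH-Sham 4 or EPO-HI 11) to 11 (without VEH-Sham 5 or EPO-HI 13) in EPO-HI, and from 7 (without VEH-HI 6) to 11 (without VEH-Sham 5 or VEH-HI 8) in VEH-HI. Members lower ranged from 0 (without VEH-Sham 1 or VEH-Sham 4) to 1 in EPO-HI. Over all probe sets, calls in VEH-HI against VEH-Sham numbered 9609 without VEH-Sham 5, in place of 6174. No member passed in EPO-HI against VEH-HI under any alternative run. No paired analysis was possible because each replicate number occurs once in the series. Members below the brightness filter have levels near background, and their differences are limited by it.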

Other observations

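A pattern seen after the values were examined concerns 3 of the 9 probe sets annotated to H2-D1 alone, none of which was bright enough to be tested. On VEH-HI 6 their levels, as log2(intensity + 16), were 7.43, 7.10 and 7.75. On the other 14 arrays they were at most 5.33, 4.87 and 4.92. Over all 45037 probe sets, these were the only 3 on VEH-HI 6 with a level more than 2 above every other array. VEH-HI 8 had 2 such probe sets, those of the chemokines Cxcl2 and Cxcl3, and each of the other 13 arrays had 0. The remaining 6 H2-D1 probe sets and all 4 H2-K1 probe sets were not at their highest on VEH-HI 6. Its H2-D1 level by the brightest probe set was 9.14, within the range of 8.79 to 9.62 on the other arrays. VEH-HI 6 was also the array on which 19 of the 26 tested members were at the highest level of their group.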
